A study of Mus musculus with 155 samples.

Results

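Mouse embryonic stem cells (ESCs) that expressed the H3.3K27M oncohistone for 4 or 8 h were compared with ESCs that expressed WT-H3.3 for the same times. The comparison was chosen from the labels alone: the RNA-seq libraries of the H3.3K27M and WT-H3.3 lines at 4 and 8 h after doxycycline (Dox), without GSK343, which gave 8 of the 155 samples of the series. Both lines derive from KH2 mouse ESCs, in which a single extra copy of a SNAP- and HA-tagged H3.3 was placed by Flp recombination under a Dox-inducible promoter, and both were grown on gelatin and given 1 µM Dox. The control therefore carried the transgene and the drug too, and differed from H3.3K27M by the lysine at position 27 of the histone. Each line had 2 libraries at 4 h and 2 at 8 h, and according to the methods the replicates were separate cultures grown weeks apart. A single line of each genotype was used, so a difference between the lines cannot be told apart from a difference between the clones.

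H3.3 is the histone H3 variant that is placed at active genes independently of DNA replication. Polycomb repressive complex 2 (PRC2) methylates lysine 27 of H3, and H3K27me3 keeps developmental genes silent in ESCs. Replacement of this lysine by methionine inhibits PRC2 in a dominant manner and lowers H3K27me3 throughout the nucleus, and it is the hallmark mutation of diffuse midline glioma in children.

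The 8 libraries held between 6590661 and 16083610 counts, and the shallowest was H3.3K27M at 4 h, replicate 2. The value used below is the CPM, a gene's counts scaled to the depth of its library, with TMM normalization, and genes of chromosome 8 were set apart as in the methods, which left 13617 genes tested. Libraries in which the cells are ESCs should hold ESC markers, and the summed CPM of the 9 ESC markers tested was 6260 to 6567 in WT-H3.3 and 6024 to 6686 in H3.3K27M. The 5 fibroblast markers tested summed to 23.6 to 36.5 CPM and 23.3 to 36.9 CPM, and Col1a1, Col1a2, Col3a1 and 8 other fibroblast markers were too low to be tested. Mitochondrial genes took 1.43% to 2.76% of the counts. No 2 libraries of a group were copies of each other, the chi-square per gene between replicates being 14.6 or more. Over genes, the Spearman coefficient was 0.966 to 0.989 between the 2 replicates of a group and 0.977 to 0.994 between the lines at the same time and replicate. The WT-H3.3 library at 4 h, replicate 2, was nearer to the 4 h replicate 1 libraries of both lines (0.989 with each) than to the other replicate 2 libraries (0.971 to 0.987), so results that rest on this library or on the replicate 2 libraries of H3.3K27M are given with that fact.

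The first question was which genes differed between the lines in the first hours. With the 4 and 8 h libraries together, no gene passed an adjusted p-value of 0.05 with a fold change above 2 or below 0.5 in the quasi-likelihood test of edgeR (0 of 13617 genes, 0%), and the lowest adjusted p was 0.999. At an unadjusted p under 0.05 stood 174 genes with higher expression in H3.3K27M (1.28%) and 176 with lower expression (1.29%). DESeq2 called 1 gene, with 332 at an unadjusted p under 0.05. When the replicate number was added as a block, 1 gene was called (0.00734%), and 897 genes (6.59%) and 832 genes (6.11%) stood at an unadjusted p under 0.05 in the higher and lower direction. The biological coefficient of variation estimated by edgeR dropped from 0.262 to 0.145 with the block. Without the block the difference between replicates therefore adds to the spread, and 0 calls do not show that no gene differed. The 95% interval of the difference lay within 2-fold in either direction for 9533 genes (70%) without the block and for 10879 (79.9%) with it, so for most genes a change above 2-fold is outside the interval, and for the others the depth and the number of libraries do not settle it.

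The gene called with the block and by DESeq2 was Fabp1, a fatty acid-binding protein of liver and intestine (named after its values were seen). Its counts came from replicate 1 of H3.3K27M, with 55.1 CPM at 4 h and 43.0 CPM at 8 h, whereas both replicate 2 libraries of H3.3K27M held 0. In WT-H3.3, Fabp1 was at 0.10 CPM in 1 library and at 0 in the other 3. The blocked adjusted p of edgeR was 1.15e-06, but the gene was not higher in every H3.3K27M culture.

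The size of the line difference depended on the replicate. Among the 8392 genes whose mean reached 10 CPM, the H3.3K27M and WT-H3.3 libraries of replicate 1 differed by a median of 0.086 at 4 h and 0.107 at 8 h on the log2 scale, and 2 genes and 1 gene differed by more than 2-fold. In replicate 2 the median difference was 0.268 at 4 h and 0.217 at 8 h, and 167 and 265 genes differed by more than 2-fold (57 higher and 110 lower at 4 h, 92 higher and 173 lower at 8 h). The 4 h values of replicate 2 rest on WT-H3.3 at 4 h, replicate 2. This library was nearer to the 4 h replicate 1 libraries (Spearman 0.989 with each) than to its H3.3K27M partner (0.977). At 8 h the replicate 2 libraries of the lines also had 0.977. A difference between the lines cannot be told apart from one between these libraries. Across genes, the line difference of replicate 1 correlated with that of replicate 2 with a Pearson r of 0.279, and that of 4 h with that of 8 h with 0.589. The Spearman coefficients, on which single extreme genes such as Fabp1 weigh less, were 0.351 and 0.484. These are descriptions over genes, which are not independent, and the 4 and 8 h libraries of a line and replicate share the cultures they were taken from as far as the replicate number says.

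**Figure D1:**
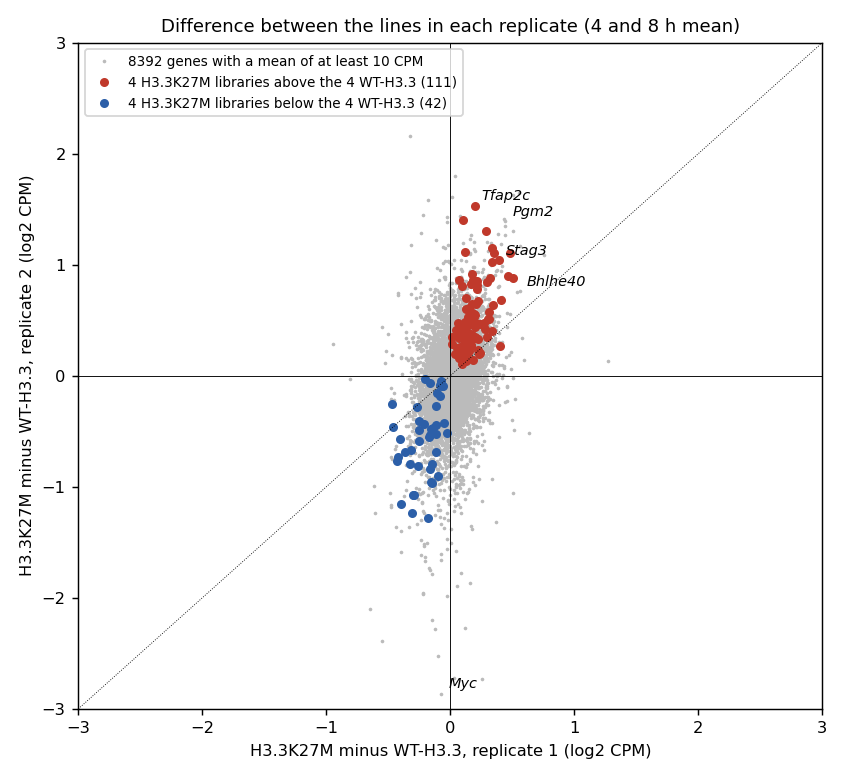
Difference of H3.3K27M from WT-H3.3 in replicate 1 (horizontal axis) and replicate 2 (vertical axis), as the mean over 4 and 8 h of the difference in log2 CPM, for the 8392 genes whose mean reached 10 CPM; 4 genes lie outside the axes. Coloured points are the 111 genes whose 4 H3.3K27M libraries lay above, and the 42 whose 4 libraries lay below, all 4 WT-H3.3 libraries, and the cloud is wider along replicate 2 (median difference 0.2) than along replicate 1 (0.082).

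In some genes all 4 H3.3K27M libraries lay on the same side of all 4 WT-H3.3 libraries, although the size of the gap could differ between replicates. Some genes fall apart in this way by the ordering of 8 libraries alone, and how many was not tested. Above lay 176 genes (1.29% of those tested) and below lay 163 (1.2%). The named genes among them, given next, were ranked by their p-values in this comparison, so their values are a description of its extremes.

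Stag3, which encodes a cohesin subunit of meiotic cells, was at 30.5, 31.9, 35.5 and 28.0 CPM in WT-H3.3 (here and below in the order 4 h replicates 1 and 2, then 8 h replicates 1 and 2) and at 41.4, 60.1, 45.2 and 63.5 CPM in H3.3K27M. The log2 fold change was 0.74 ± 0.20 (SE), and the groups did not overlap. Its adjusted p in edgeR was 0.999 and, with the block, 0.144, so it passed neither way. Igfbp4, a secreted protein that binds insulin-like growth factors, was at 6.91, 6.88, 11.7 and 7.62 CPM in WT-H3.3 and at 11.8, 12.5, 13.6 and 19.9 CPM in H3.3K27M, a log2 fold change of 0.81 ± 0.22 (SE). The highest WT-H3.3 library was just under the lowest H3.3K27M library. H1f10, a linker histone, held 20.7 to 25 CPM in WT-H3.3 and 27.5 to 39.5 CPM in H3.3K27M (log2 fold change 0.55 ± 0.15, SE), and Esrp1, a splicing regulator of epithelial cells, held 6.51 to 9.09 and 10.1 to 18.5 CPM (0.74 ± 0.22, SE). Ncmap, which encodes a membrane protein of myelin, was lower in level, at 0.63 to 1.10 CPM against 1.56 to 3.32 CPM (1.39 ± 0.36, SE).

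With the block, the ranking also brought forward genes whose difference came mostly from replicate 2. Aldh18a1, the first enzyme of proline synthesis from glutamate, was at 62.6, 64.6, 60.9 and 61.0 CPM in WT-H3.3 and at 65.7, 180, 66.9 and 154 CPM in H3.3K27M. The replicate 1 libraries of the lines were thus nearly level, and the replicate 2 libraries of H3.3K27M were far above. Tfap2c, a transcription factor of trophoblast and germ cells, was at 27.4, 27.3, 34.2 and 22.7 CPM in WT-H3.3 and 35.4, 63.8, 34.9 and 81.8 CPM in H3.3K27M, and Capn5, a calpain protease, at 21.9, 25, 24.8 and 26.7 against 26.7, 62.5, 30.3 and 65.6 CPM. Aldh18a1, Tfap2c and Capn5 had log2 fold changes of 0.91, 0.95 and 0.91, and their blocked adjusted p-values in edgeR were 0.207, 0.205 and 0.154.

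Most hypoxia-inducible factor (HIF) targets and glycolytic enzymes had higher values in H3.3K27M. HIF is the transcription factor that is degraded in the presence of oxygen and that otherwise switches on genes of glycolysis, blood vessel growth and mitochondrial turnover through a short element with the core ACGTG or GCGTG. Of 52 HIF targets listed, 47 were tested, and 39 had a log2 fold change above 0 and 8 below. Over all 13617 genes tested, 6879 were above 0. The median of the HIF targets was 0.26, against 0.00 over all genes tested. No HIF target was called, and 9 stood at an unadjusted p under 0.05 with higher expression and 0 with lower. With the block 23 were higher and 1 lower. Over all genes these shares were 1.28% and 1.29%, or 6.59% and 6.11% with the block, and they are the background of the lists below too. The HIF list was chosen with earlier results of these data known, so its direction is not independent evidence. Its members share upstream regulators and are not independent.

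For 38 of the HIF targets tested, RefSeq held 55 start sites, and 40 of these (72.7%) had ACGTG or GCGTG on either strand in the 250 bases before the start, overlapping matches counted. This was the case for 38.6% of all 32851 promoters of the table and for 55.8% of the promoters of genes tested, so the element is common. The promoters of Bnip3, Ddit4 and Egln3 are printed as examples from the HIF targets whose values are described below. They have GRCm38.p6 coordinates and run 5′ to 3′ on the strand of the gene, up to the base before the start. Capitals mark the matches, and CACGTG is 2 overlapping matches.
Bnip3, chr7:138909507-138909756, minus strand: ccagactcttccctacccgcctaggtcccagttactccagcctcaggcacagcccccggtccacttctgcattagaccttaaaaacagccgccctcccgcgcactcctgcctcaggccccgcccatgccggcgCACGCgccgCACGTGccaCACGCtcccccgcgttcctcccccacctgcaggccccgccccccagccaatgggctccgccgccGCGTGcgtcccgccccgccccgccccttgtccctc
Ddit4, chr10:59951771-59952020, minus strand: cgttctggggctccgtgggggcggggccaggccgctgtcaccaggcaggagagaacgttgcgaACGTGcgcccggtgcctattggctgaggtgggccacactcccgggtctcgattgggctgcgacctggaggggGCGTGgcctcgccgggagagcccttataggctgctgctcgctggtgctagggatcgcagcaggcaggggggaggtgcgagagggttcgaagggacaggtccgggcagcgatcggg
Egln3, chr12:54203875-54204124, minus strand: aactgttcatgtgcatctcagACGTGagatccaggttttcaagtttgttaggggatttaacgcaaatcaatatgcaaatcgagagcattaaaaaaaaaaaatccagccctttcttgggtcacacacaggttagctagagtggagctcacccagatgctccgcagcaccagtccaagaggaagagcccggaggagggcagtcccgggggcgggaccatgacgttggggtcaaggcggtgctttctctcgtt
Bnip3 held 5 matches, Ddit4 2 and Egln3 1. Vegfa, a HIF target described below and not printed, held 0 matches at start site 1 and 2 at start site 2. Grin1, which is not on the HIF list, held 5. A match is a description of the letters and not a bound site.

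Among the HIF targets, Ndufa4l2 had the lowest p-value. It encodes a mitochondrial protein that lowers complex I activity in hypoxia, and it lies at 126951995 to 126954208 of chromosome 10 (mm9, plus strand). Its level was 5.31, 6.28, 9.36 and 6.27 CPM in WT-H3.3 and 8.52, 10.8, 17.0 and 17.0 CPM in H3.3K27M. Every H3.3K27M library lay above the WT-H3.3 library of the same time and replicate, although WT-H3.3 at 8 h, replicate 1, exceeded H3.3K27M at 4 h, replicate 1. The log2 fold change was 0.93 ± 0.21 (SE), with a 95% interval of 0.44 to 1.41, and the adjusted p in edgeR was 0.999, or 0.144 with the block. It ranged from 0.79 to 1.08 when each library was left out in turn.

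Vegfa, the growth factor of blood vessels, was at 15.3, 20.2, 19.5 and 25.9 CPM in WT-H3.3 and at 20.6, 32.8, 25 and 95.3 CPM in H3.3K27M. The groups overlapped, and 1 library, H3.3K27M at 8 h, replicate 2, was far above the others. The log2 fold change was 0.99 ± 0.39 (SE), and 0.36 without that library. Pgm2, a phosphoglucomutase that links glycogen and glycolysis, was at 17.8, 22.1, 19.4 and 28.2 CPM in WT-H3.3 and at 21.4, 59.1, 30.2 and 73.2 CPM in H3.3K27M, a log2 fold change of 1.06 ± 0.38 (SE). Here both replicate 2 libraries of H3.3K27M were high, and the value was 0.67 without the 8 h one and 0.61 without the 4 h one. The symbols of the phosphoglucomutases differ between annotations: Pgm2 is here the gene at 99602019 to 99659899 of chromosome 4 in mm9, which RefSeq calls Pgm1. The gene called Pgm1 here, on chromosome 5, had a log2 fold change of 0.22 ± 0.16 (SE).

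Ddit4, an inhibitor of mTORC1 that stress and hypoxia induce, and Bhlhe40, a transcriptional repressor linked to the circadian clock, were also highest in H3.3K27M at 8 h, replicate 2. Ddit4 was at 32.9, 35.6, 39.5 and 33.2 CPM in WT-H3.3 and at 37.7, 27.5, 54.7 and 172 CPM in H3.3K27M. Bhlhe40 was at 26.0, 26.9, 28.7 and 26.1 CPM in WT-H3.3 and at 35.9, 17.8, 45.4 and 113 CPM in H3.3K27M. In each, the replicate 2 library of H3.3K27M was the lowest of all 8 at 4 h and the highest at 8 h, with the replicate 1 library of 8 h next. Their log2 fold changes were 0.79 ± 0.33 and 0.78 ± 0.32 (SE), and 0.26 and 0.38 without H3.3K27M at 8 h, replicate 2. By time, Ddit4 had -0.07 ± 0.47 at 4 h and 1.64 ± 0.47 (SE) at 8 h, and Bhlhe40 had 0.02 ± 0.45 and 1.54 ± 0.46 (SE). Ier3, an immediate early gene, was likewise lowest in the first and highest in the second of these libraries, with 12.1, 3.85, 10.8 and 33.4 CPM in H3.3K27M and 4.03 to 8.91 CPM in WT-H3.3.

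Egln3, the prolyl hydroxylase that marks HIF for degradation and is itself a HIF target, was at 12.3, 9.0, 13 and 14.7 CPM in WT-H3.3 and at 11.0, 13.3, 18.7 and 23.4 CPM in H3.3K27M, so that the 8 h libraries of H3.3K27M were above all others. Bnip3, which drives the removal of mitochondria, was at 12.7, 16.6, 24.5 and 22.3 CPM in WT-H3.3 and at 15.2, 22.3, 32.9 and 34.4 CPM in H3.3K27M. Both genes were higher at 8 h than at 4 h within each line. Their log2 fold changes between the lines were 0.40 ± 0.20 and 0.44 ± 0.19 (SE). A2m, a protease inhibitor of blood plasma, was at 22.0, 26.4, 22.6 and 48.2 CPM in WT-H3.3 and 27.9, 43.5, 33.7 and 63.9 CPM in H3.3K27M (0.51 ± 0.31, SE). It was higher in H3.3K27M within each time and replicate, but WT-H3.3 at 8 h, replicate 2, lay above 3 of the 4 H3.3K27M libraries.

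**Figure D2:**
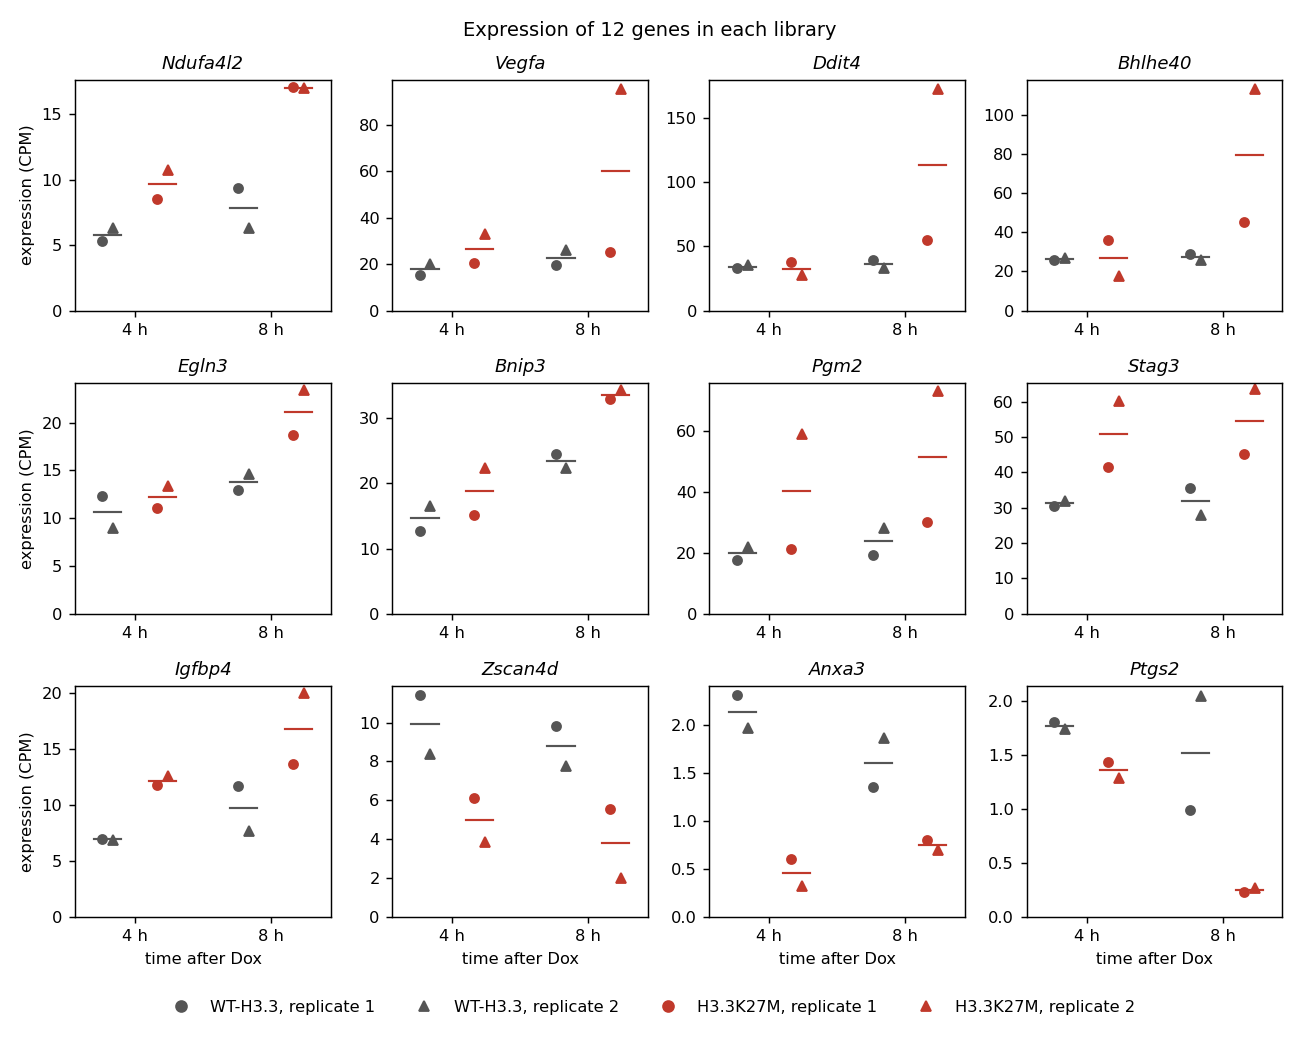
Expression in CPM (vertical axes, from 0) of 12 genes at 4 and 8 h after Dox in the 4 WT-H3.3 libraries (grey) and the 4 H3.3K27M libraries (red); circles are replicate 1, triangles replicate 2, and bars the mean of the 2 libraries. Vegfa, Ddit4 and Bhlhe40 are highest in H3.3K27M at 8 h, replicate 2 (95.3, 172 and 113 CPM), whereas Stag3 and Igfbp4 are higher in all 4 H3.3K27M libraries, and Zscan4d and Anxa3 are lower in all 4.

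Of the 25 glycolytic genes, 23 had a log2 fold change above 0, against 6879 of all 13617 genes, and the median was 0.28. At an unadjusted p under 0.05 stood 3 with higher expression and 0 with lower. With the block 14 were higher and 0 lower, against 6.59% and 6.11% of all genes. The HIF and glycolysis lists share 13 genes. Tpi1, triosephosphate isomerase, was at 519, 555, 593 and 519 CPM in WT-H3.3 and at 600, 703, 672 and 777 CPM in H3.3K27M. All 4 H3.3K27M libraries were above all WT-H3.3 libraries, by a log2 fold change of 0.33 ± 0.13 (SE). Pfkl, the liver form of phosphofructokinase, had 0.48 ± 0.21, Aldoc, aldolase C, 0.45 ± 0.18, and Hk1, hexokinase, 0.68 ± 0.30 (SE), and their blocked adjusted p-values in edgeR were 0.151, 0.253 and 0.205. Per library, the median of the glycolytic genes relative to the WT-H3.3 mean was -0.13, 0.00, 0.01 and 0.04 in WT-H3.3 and 0.06, 0.27, 0.22 and 0.59 in H3.3K27M, on the scale of log2(CPM + 1). That of the HIF targets was -0.14, 0.00, 0.05 and 0.21 in WT-H3.3 and 0.05, 0.17, 0.29 and 0.54 in H3.3K27M. Both medians were highest in H3.3K27M at 8 h, replicate 2, but when any 1 of the 8 libraries was left out the median log2 fold change stayed between 0.20 and 0.37 for HIF targets and between 0.18 and 0.35 for glycolysis.

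**Figure D3:**
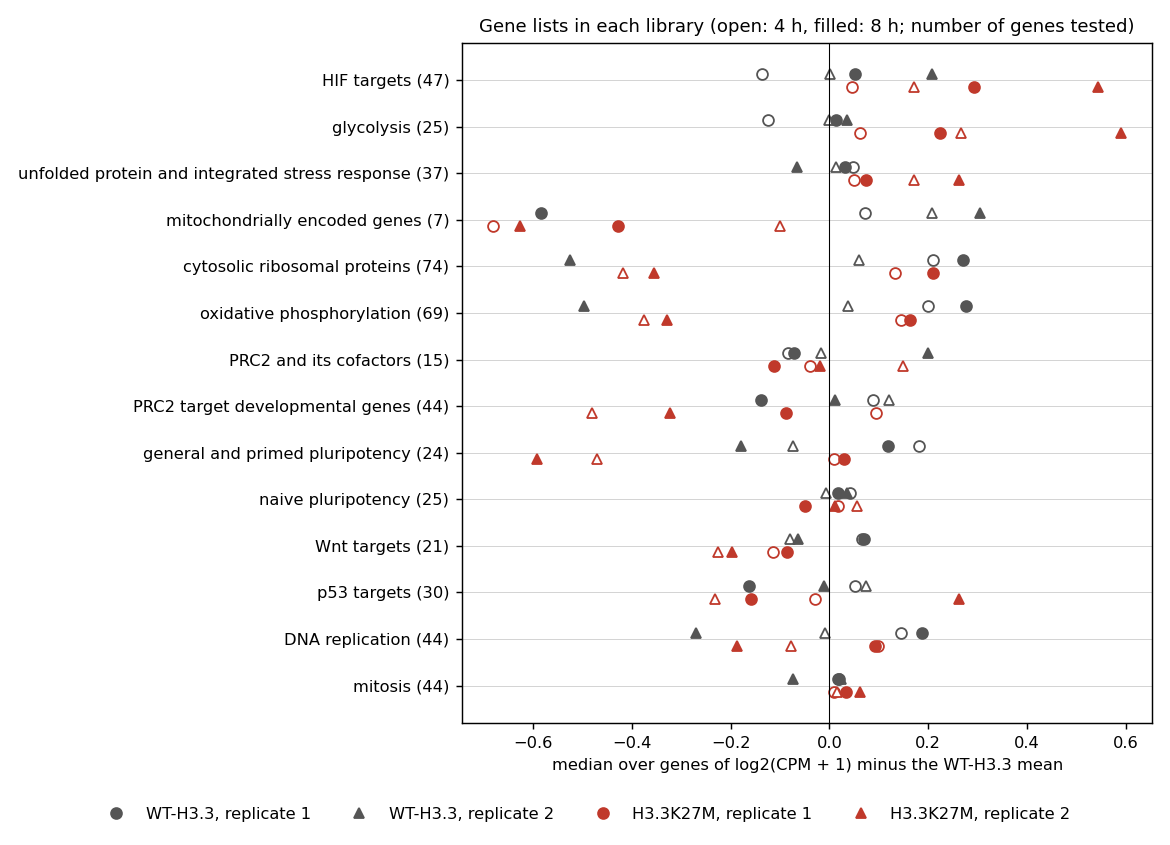
Median over the tested genes of each list of log2(CPM + 1) minus the WT-H3.3 mean of the gene (horizontal axis) in the 8 libraries; rows are gene lists with the number of genes tested, grey is WT-H3.3, red is H3.3K27M, circles are replicate 1, triangles replicate 2, open symbols 4 h and filled symbols 8 h. HIF targets and glycolysis reach 0.54 and 0.59 in H3.3K27M at 8 h, replicate 2, and the replicates of a line are spread widely in most rows.

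Of the 37 genes of the unfolded protein and integrated stress responses, 24 had a log2 fold change above 0, against 6879 of all 13617 genes. At an unadjusted p under 0.05 stood 2. With the block 10 were higher and 1 lower, against 6.59% and 6.11% of all genes. The list median was 0.19, but 0.07 without H3.3K27M at 8 h, replicate 2, and 0.11 without H3.3K27M at 4 h, replicate 2. Nupr1, a stress-induced chromatin protein, was at 8.51, 15.6, 14 and 10.8 CPM in WT-H3.3 and at 12.4, 30.0, 17.6 and 40.5 CPM in H3.3K27M, with the 2 replicate 2 libraries of H3.3K27M highest. Mthfd2, a mitochondrial enzyme of folate metabolism, was higher in all 4 H3.3K27M libraries (110 to 165 CPM against 83.0 to 109 CPM), although the lowest of them lay within 1 CPM of the highest WT-H3.3 library. Ddit3, which encodes the stress factor CHOP, was at 5.11 to 6.48 CPM in WT-H3.3, at 5.88 and 6.13 CPM in replicate 1 of H3.3K27M and at 10.4 and 17.5 CPM in replicate 2. Cdkn1a, the cell cycle inhibitor p21, was at 109 to 123 CPM in WT-H3.3 and at 127, 172, 136 and 322 CPM in H3.3K27M, whereas the 30 p53 targets tested, of which it is one, had a median of -0.07 with 1 higher and 2 lower at an unadjusted p under 0.05.

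The machinery that H3.3K27M acts on did not differ in expression beyond the spread of the libraries. The 15 genes of PRC2 and its cofactors had a median log2 fold change of 0.03, and 0 stood at an unadjusted p under 0.05 (1 higher and 1 lower with the block). Ezh2, the methyltransferase, had -0.03 with a 95% interval of -0.42 to 0.36, Suz12 0.03 with -0.41 to 0.47, and Eed -0.24 with -0.65 to 0.17. Eed was at 385, 338, 367 and 291 CPM in WT-H3.3 and 353, 246, 330 and 241 CPM in H3.3K27M, lower in each pair of the same time and replicate. Ezhip, a natural inhibitor of PRC2, was at 1.2 to 1.44 CPM in WT-H3.3 and 1.22 to 2.73 CPM in H3.3K27M. Bmi1, a subunit of PRC1, was at 24.7 to 29.5 CPM in WT-H3.3 and at 25.8, 14.9, 21.2 and 14.3 CPM in H3.3K27M (-0.55 ± 0.22, SE), and the 23 PRC1 genes, Bmi1 included, had a median of -0.08. The genes of H3.3 itself, H3f3a and H3f3b, had log2 fold changes of -0.15 and -0.12 with 95% intervals of -0.71 to 0.40 and -0.53 to 0.28; counts per gene do not separate the transgene from the endogenous copies, so the induction of the transgene was not measured here.

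As a list, developmental genes known for H3K27me3 in ESCs were not higher in H3.3K27M at these times. The paper places the early time points before the mutant has its full effect on PRC2, and takes 4 and 8 h as the reference for its H3K27me3 levels. H3K27me3 was not read here, so its loss at these times is not established. Of 93 listed, 44 were tested, since 45 were too low, and 11 had a log2 fold change above 0 and 33 below, with a median of -0.32. The list was not checked against H3K27me3 in these cells. Tbx3 and Gbx2, which were tested, are on the naive pluripotency list too, so not all members tested need be silenced. At an unadjusted p under 0.05 stood 0 with higher and 2 with lower expression, and with the block 2 were higher and 9 lower. Over all 13617 genes, 6879 were above 0 and 6734 below, and with the block 6.59% stood higher and 6.11% lower. Cdx2, a transcription factor of trophoblast and intestine, was at 3.71, 1.97, 1.62 and 2.75 CPM in WT-H3.3 and at 1.56, 0, 0.91 and 0.09 CPM in H3.3K27M, and the replicate 2 libraries of H3.3K27M held almost none. Gata3, another trophoblast factor, was at 2.80, 2.5, 1.26 and 2.11 CPM in WT-H3.3 and 1.08, 1.61, 1.14 and 0.79 CPM in H3.3K27M (-0.91 ± 0.34, SE), whereas Bmp7 had 0.45 ± 0.26 (SE). Lmx1a, a factor of dopaminergic neurons that is not on the list, was lower in all 4 H3.3K27M libraries, with 1.00, 1.51, 1.17 and 1.02 CPM in WT-H3.3 and 0.48, 0.16, 0.34 and 0.17 CPM in H3.3K27M (-1.98 ± 0.47, SE). At such levels a library holds few counts of these genes. A list median over genes that passed a filter on low counts leaves out the members that are silent in both lines. It keeps a member that passed only through the libraries of 1 line, and one that passed only through WT-H3.3 pulls the median down. The list median was -0.14 without H3.3K27M at 4 h, replicate 2, the shallowest library, -0.65 without H3.3K27M at 4 h, replicate 1, and -0.11 with 10 counts or more in every library.

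Among the genes lower in all 4 H3.3K27M libraries were several that ESCs express in a rare state that resembles the 2-cell embryo; no list of genes of this state was used, and the group was noticed after the values were seen, although the Zscan4 genes are on the naive pluripotency list. Zscan4d, the best known of them, was at 11.4, 8.40, 9.81 and 7.75 CPM in WT-H3.3 and at 6.12, 3.85, 5.56 and 2.01 CPM in H3.3K27M. The groups did not overlap, and the log2 fold change was -1.10 ± 0.34 (SE), with a blocked adjusted p in edgeR of 0.138. Zscan4f had 2.20 to 2.79 against 0.87 to 1.68 CPM (-0.92 ± 0.30, SE), and Zscan4c 5.38 to 7.61 against 1.31 to 5.52 CPM (-1.12 ± 0.39, SE), of which the H3.3K27M library at 4 h, replicate 1, overlapped WT-H3.3. Spopfm1, Tdpoz4, Gm8300 and Gm2016 also lay lower without overlap, with log2 fold changes of -1.98, -2.20, -1.04 and -1.06. Spopfm1 held 1.35 to 2.18 CPM in WT-H3.3 and 0.16 to 0.72 CPM in H3.3K27M. Tdpoz4 held 0.81 to 1.34 and 0.09 to 0.48 CPM, so the fold changes of both rest on few counts. All the genes named in this group belong to families of near-identical copies among which reads can be split, so the values of single members are uncertain. In bulk RNA, fewer cells of such a state and less RNA per cell cannot be told apart.

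Ptgs2, the inducible cyclooxygenase, was at 1.80, 1.74, 0.99 and 2.05 CPM in WT-H3.3 and at 1.44, 1.28, 0.23 and 0.26 CPM in H3.3K27M. Its H3.3K27M libraries were low at 8 h, and both 4 h values lay above the lowest WT-H3.3 value. The log2 fold change was -0.37 ± 0.50 at 4 h and -2.59 ± 0.60 (SE) at 8 h. The difference between the times was -2.22 ± 0.79 (SE), which did not pass the adjusted threshold. Anxa3 and Anxa1, calcium-dependent membrane-binding proteins, were lower without overlap, Anxa3 with 1.35 to 2.30 against 0.32 to 0.79 CPM (-1.62 ± 0.36, SE) and Anxa1 with 4.05 to 6.01 against 1.31 to 3.29 CPM (-1.12 ± 0.33, SE). Slc5a1, a sodium-coupled glucose transporter, had 4.41 to 6.60 against 1.92 to 3.60 CPM (-0.99 ± 0.29, SE).

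The core factors of pluripotency did not differ beyond the spread of the libraries. Sox2 was at 361 to 437 CPM in WT-H3.3 and 376 to 457 CPM in H3.3K27M, with a log2 fold change of 0.03 and a 95% interval of -0.28 to 0.34. Nanog had -0.07 with -0.49 to 0.35, and Pou5f1 -0.20 with -0.71 to 0.31. The 25 naive pluripotency genes tested had a median of 0.06, with 0 higher and 3 lower (Zscan4c, Zscan4d and Zscan4f) at an unadjusted p under 0.05, or 5 and 5 with the block. Over the 24 general and primed pluripotency genes tested, 18 had a log2 fold change below 0, with a median of -0.21, and 1 was higher and 0 were lower at an unadjusted p under 0.05 (1 and 9 with the block). L1td1, an RNA-binding protein of pluripotent cells, was at 757 to 1002 CPM in WT-H3.3 and at 750, 647, 777 and 417 CPM in H3.3K27M. The replicate 2 libraries of H3.3K27M were the lowest, and without the 8 h one the list median was -0.05. Myc, listed as a Wnt target, was at 34.1, 40.8, 31.0 and 49.9 CPM in WT-H3.3 and at 31.4, 10.3, 30.2 and 3.5 CPM in H3.3K27M, nearly level in replicate 1 and lower in replicate 2, with a log2 fold change of -1.05 ± 0.59 (SE). Of the 21 Wnt targets tested, 1 was higher and 2 were lower at an unadjusted p under 0.05 (1 and 8 with the block), with a median of -0.19. That median was -0.06 without H3.3K27M at 4 h, replicate 2, -0.12 without H3.3K27M at 8 h, replicate 2, -0.36 without H3.3K27M at 8 h, replicate 1, and -0.03 over the 12 genes with 10 counts or more in every library. Dkk1, a secreted Wnt inhibitor, was at 1.41 to 2.7 CPM in WT-H3.3 and at 1.44, 0.48, 0.68 and 0.17 CPM in H3.3K27M.

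All 7 mitochondrially encoded genes tested were lower in H3.3K27M, with a median of -0.43 (3 at an unadjusted p under 0.05, 6 with the block). The 7 genes lie on the same genome and are not independent. Another 5, mt-Nd3, mt-Nd4l, mt-Co2, mt-Co3 and mt-Atp8, held 0 counts in all 8 libraries. The deposited counts of this genome are thus incomplete, which limits the reading of the 7. For mt-Nd1, a subunit of complex I, the values were 5125, 6170, 3268 and 5455 CPM in WT-H3.3 and 3562, 4254, 3517 and 2429 CPM in H3.3K27M, and mt-Nd6 had 696 to 1063 against 551 to 728 CPM. The WT-H3.3 library at 8 h, replicate 1, lay among the H3.3K27M libraries in both. The nuclear genes of the respiratory chain (69 tested) and the cytosolic ribosomal proteins (74 tested) had medians of -0.11 and -0.11, made up of -0.22 and -0.25 at 4 h and 0.00 and 0.03 at 8 h. Without H3.3K27M at 8 h, replicate 2, the medians were 0.00 and 0.01. Over the 6 ionotropic glutamate receptor genes tested the median was 0.64, but -0.08 without H3.3K27M at 4 h, replicate 2; the other 12 were too low. Grin1, an NMDA receptor subunit, was at 2.20, 1.82, 1.80 and 3.65 CPM in WT-H3.3 and at 2.16, 4.34, 4.54 and 6.04 CPM in H3.3K27M (0.81 ± 0.35, SE).

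The 44 DNA replication genes and the 44 mitosis genes tested had medians of -0.02 and 0.07, with 0 at an unadjusted p under 0.05 in each. Cholesterol synthesis (27 tested) had 0.03, imprinted genes (28) -0.05, germline genes (23) 0.01, genes of H3.3 and its chaperones (17) 0.09, modifiers of H3K27 (14) 0.07, and immediate early genes (32) 0.05. Of the 56 replication-dependent histones listed, only 1 was matched by its symbol, so the expression of this list was not read here. The trophoblast markers (10 tested) had a median of -0.17 and those of extraembryonic endoderm (9) -0.06; their summed CPM were 122 to 152 and 537 to 562 in WT-H3.3 and 131 to 184 and 517 to 575 in H3.3K27M. The neural progenitor markers (5 tested) summed to 65.8 to 77.2 CPM in WT-H3.3 and to 72.8 to 98.3 CPM in H3.3K27M, higher in the replicate 2 libraries of H3.3K27M, and the defining markers Neurog2 and Dcx were too low to be tested. Their median log2 fold change was 0.27, but -0.51 without the filter on low counts and -0.03 with chromosome 8 kept. Their part in the other results was not tested.

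The second question was whether the line effect changed from 4 to 8 h. No gene passed the adjusted threshold for this difference in edgeR, 45 stood at an unadjusted p under 0.05 (0.33%), and DESeq2 gave 0 and 18. The 95% interval of the difference lay within 2-fold for 25.3% of the genes, so most genes could differ by more. Of the 45, 13 had a difference above 0, among them Ddit4 (1.71 ± 0.66, SE) and Socs3 (1.29 ± 0.50, SE), and 32 one below 0, among them Ptgs2 (-2.22 ± 0.79, SE). Socs3, the feedback inhibitor of LIF signalling, was at 134, 126, 103 and 92.0 CPM in WT-H3.3 and at 137, 97.0, 134 and 294 CPM in H3.3K27M, and it was highest in H3.3K27M at 8 h, replicate 2. At 4 h alone no gene was called, with 96 at an unadjusted p under 0.05, and at 8 h alone no gene was called, with 218. With the block 2 genes were called at 4 h (Fabp1 and ENSMUSG00000098973.1) and 1 at 8 h (Fabp1), and DESeq2 called 0 at 4 h and 1 at 8 h (Fabp1).

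Between 8 and 4 h, over both lines, no gene was called by edgeR or DESeq2, and 60 genes were higher at 8 h (0.441%) and 31 lower (0.228%) at an unadjusted p under 0.05. All 4 libraries of 8 h lay above all 4 of 4 h in 76 genes (0.558%) and below them in 59 (0.433%). Bnip3 had the lowest p-value of all genes, with 12.7 to 22.3 CPM at 4 h and 22.3 to 34.4 CPM at 8 h, which just did not overlap, a log2 fold change of 0.76 ± 0.19 (SE) and an adjusted p of 1 in edgeR. Of the 47 HIF targets, 42 were higher at 8 h, against 6497 of all 13617 genes. Their median was 0.25, and 7 stood at an unadjusted p under 0.05 with higher and 0 with lower expression. Egln3 had 0.59 ± 0.20 and Ndufa4l2 0.62 ± 0.21 (SE). The median difference of the line effect between the times over the HIF targets was 0.12. Cyp1a1, a target of the aryl hydrocarbon receptor (chosen after the values were seen), was at 43.0, 35.3, 31.8 and 3.37 CPM at 4 h and at 9.09, 1.22, 6.59 and 5.42 CPM at 8 h, WT-H3.3 before H3.3K27M; the groups overlapped through H3.3K27M at 4 h, replicate 2.

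The early effects were set beside those of the same lines at 24 and 72 h, which rest on 8 other libraries but on the same lines and replicate numbers. No gene was called at 24 and 72 h either (0 of 13064, with 707 at an unadjusted p under 0.05; DESeq2 called 9), and none for the difference between late and early effects (54 at an unadjusted p under 0.05; DESeq2 gave 0 and 31). Of the 176 genes that lay above in all 4 early H3.3K27M libraries, 168 were tested late, and 139 (82.7%) had a late log2 fold change above 0, against 49.9% of all genes. For those that lay below, the count was 128 of 148 (86.5%), against 50.1%. All 4 late H3.3K27M libraries again stood apart in the same direction in 7 of the 168 (4.17%, against 1.69% of all genes) and in 12 of the 148 (8.11%, against 1.26%). Across the 8392 genes whose mean reached 10 CPM, the early and late effects correlated with a Pearson r of 0.836 and a Spearman coefficient of 0.771. Effects were also taken for each time point and replicate alone, each from 1 library a side. Early and late effects of the same replicate number then had a Pearson r of -0.038 to 0.749 (median 0.393), on which single extreme genes can weigh. Between different replicate numbers they correlated by -0.064 to 0.573 (median 0.256). Since the cultures of a replicate may be shared over the time course, the likeness of early and late effects does not separate the lines from the cultures.

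Named genes kept their direction to a different extent. Ndufa4l2 had 0.93 early and 1.41 ± 0.27 (SE) late, Ddit4 0.79 and 1.55 ± 0.25, Vegfa 0.99 and 1.22 ± 0.22, Bhlhe40 0.78 and 1.30 ± 0.28, Egln3 0.40 and 1.02 ± 0.20, Grin1 0.81 and 1.49 ± 0.26, A2m 0.51 and 1.13 ± 0.19, and Pgm2 1.06 and 1.21 ± 0.28. For each of these except A2m the 4 late H3.3K27M libraries lay above all 4 of WT-H3.3. Ptgs2 had -1.48 and -1.75 ± 0.38 (SE), Lmx1a -1.98 and -1.86 ± 0.53, and Slc5a1 -0.99 and -1.33 ± 0.31, all 3 without overlap late. Stag3 had 0.74 early and 0.36 ± 0.18 (SE) late, Anxa3 -1.62 and -0.57 ± 0.37, and Ncmap 1.39 and -0.03 ± 0.33. Fabp1 was again found in replicate 1 of H3.3K27M, with 33.8 CPM at 24 h and 21.8 CPM at 72 h, and at 0 in both replicate 2 libraries.

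**Figure D4:**
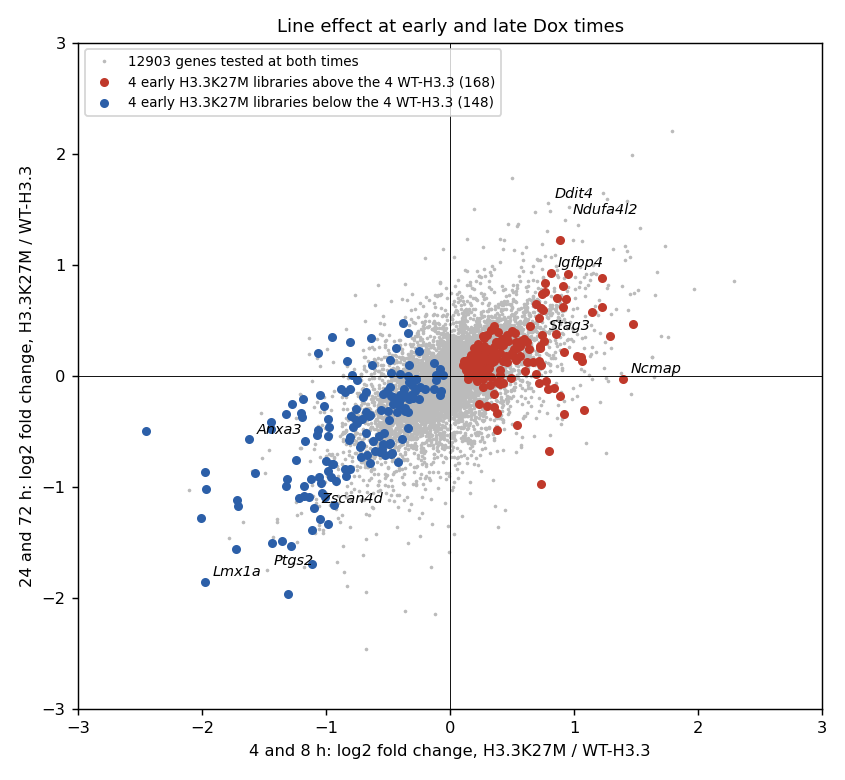
Log2 fold change of H3.3K27M over WT-H3.3 at 4 and 8 h (horizontal axis) and at 24 and 72 h (vertical axis) for the 12903 genes tested at both times; 2 genes lie outside the axes. Red points are the 168 genes whose 4 early H3.3K27M libraries lay above, and blue points the 148 whose 4 libraries lay below, all 4 WT-H3.3 libraries; Ndufa4l2, Ddit4 and Igfbp4 lie on the upper right, Ptgs2, Lmx1a and Zscan4d on the lower left, and Ncmap lies near 0 late.

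H3.3K27L, a mutant that cannot be modified at the same position but does not inhibit PRC2, and WT-H3.3 cells given the PRC2 inhibitor GSK343 were measured at the same times and compared with the same WT-H3.3 libraries, so the 3 comparisons are not independent and only their values are set side by side. Ndufa4l2 had 0.93 ± 0.21 in H3.3K27M, -0.77 ± 0.30 in H3.3K27L and 0.43 ± 0.22 (SE) with GSK343. Ddit4 had 0.79, -0.68 and 0.22, Vegfa 0.99, -0.38 and -0.05, and Igfbp4 0.81, -0.79 and 0.20. Pgm2, also a HIF target, had 1.06, 0.39 and 0.03, above 0 in all 3. Zscan4d had -1.10, -2.32 and -0.63, and Gm8300 -1.04, -2.60 and -0.36, lower in all 3. Ptgs2 had -1.48, -0.83 and 0.26, Anxa3 -1.62, -0.35 and 0.25, and Stag3 0.74, 0.02 and 0.28. None of these values passed the adjusted threshold of edgeR.

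The balance of short and long genes differed between the libraries. The labels and methods name a kit for 3′ ends and another mRNA-seq kit without saying which library was made with which. Among 8243 genes sorted by length, the median of the 1649 longest (at least 6536 bases) minus that of the 1649 shortest (at most 2219 bases), relative to the WT-H3.3 mean, was -0.31, 0.06, -0.46 and 0.72 in WT-H3.3 and -0.20, 0.64, -0.29 and 0.59 in H3.3K27M on the scale of log2(CPM + 1). Replicate 2 libraries were thus high and replicate 1 libraries low, except WT-H3.3 at 4 h, replicate 2, which lay between them. The line effect at 4 h had a median of -0.16 over the shortest genes and 0.17 over the longest, and at 8 h of 0.00 and 0.02. Ribosomal protein genes, which are short, had the 4 h median of -0.25 given above. The part of gene length in the other 4 h values was not tested.

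**Figure D5:**
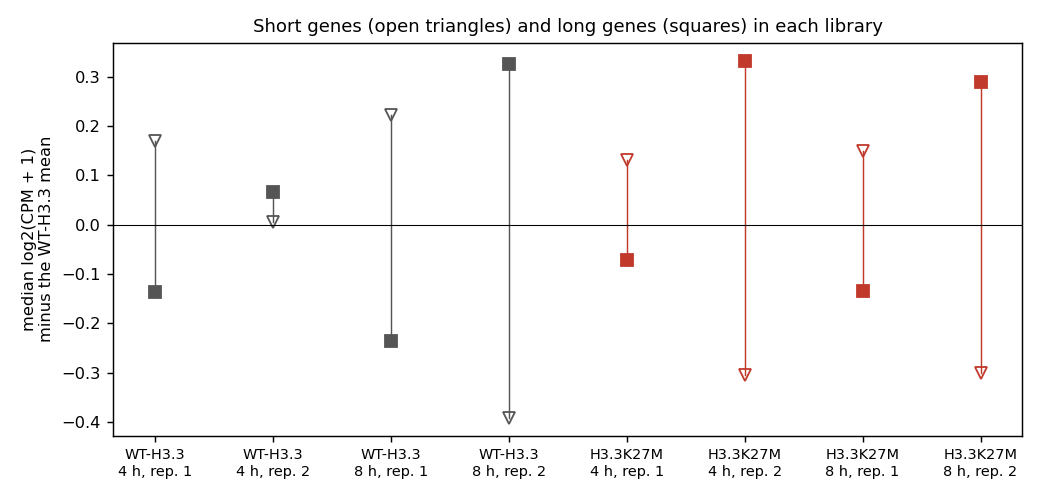
Median of log2(CPM + 1) minus the WT-H3.3 mean (vertical axis) over the 1649 shortest genes (open triangles) and the 1649 longest (filled squares) in each of the 8 libraries (horizontal axis), grey for WT-H3.3 and red for H3.3K27M. Long genes lie above short genes in 4 libraries, which are the replicate 2 libraries, by 0.06 in WT-H3.3 at 4 h and by 0.59 to 0.72 in the other 3, and below them in the 4 replicate 1 libraries.

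Chromosome 8, which was set apart, held 789 tested genes with a median log2 fold change of 0.00, of which 7 were higher and 10 lower at an unadjusted p under 0.05.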

How the data were processed

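Per the labels and the methods, RNA of the ESCs was made into mRNA libraries and sequenced as single ends, and the authors used STAR 2.7.1 and mm9 for alignment. The values used here are the raw gene counts that they deposited, and no step before these was repeated. The ESC table listed 55471 genes. An entry of the mm9 annotation was found for 32589 of them, with 98.1% of the counts, and the rest have an identifier but no position here. The 2532 genes of chromosome 8 were set apart, 1097 of them placed by their order in the table. How strand was treated in counting is not given in the sources used here, so overlapping and antisense genes cannot be separated.

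Groups came from the labels. Genes were filtered with filterByExpr and fitted in edgeR 4.0.16 (R 4.3.3) with TMM factors, a mean for each line and time and the quasi-likelihood F test, for the mean line effect over 4 and 8 h, for each time, for its change between the times, and for 8 against 4 h. Benjamini-Hochberg adjustment ran over all genes of a fit. A call needed an adjusted p under 0.05 together with a change of more than 2-fold. The log2 CPM of single libraries used a prior count of 2, and the medians of lists a pseudocount of 1. P-values measure the spread between libraries of 1 line each. With and without the block, the 4 and 8 h libraries of a line and replicate entered as separate, although they may share a culture. On this count the p-values may understate the spread between cultures. Without the block, however, the difference between replicates also enters the spread. In edgeR 2.57% of genes then stood at an unadjusted p under 0.05 for the mean line effect, and 0.33% for its change. Both are below the 1 in 20 expected when no gene differs, so these fits may also miss differences. With the block the share for the mean effect was 12.7%. The replicate numbers pair the samples: the difference between replicates correlated between groups by 0.368 to 0.615 over 13617 genes, and the methods place the replicates weeks apart, so the fit with the replicate number as a block is given beside results it changes. DESeq2 1.42.0, other normalizations and filters, larger models and leaving out each library were tried as alternatives. The fits were also run on simulated counts with a common dispersion and independent libraries. These hold no shared cultures and no balance of gene lengths, so that run cannot speak for the fits on these points.

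The comparison, the 28 gene lists and the named genes were chosen with earlier results of these data known. The genes named are 9 genes of the study's topic, 9 marker and PRC2 genes, the 12 of lowest p in each direction among genes whose libraries did not overlap, without and with the block, the 6 of lowest p in each direction for time and for the change with time, and the 4 of lowest p in each list. This gave 173 genes, of which part are described; genes outside the rule are said to be chosen after their values were seen. Promoters were read from RefSeq (GRCm38.p6). Python 3.11.15, NumPy 2.4.6, pandas 2.3.3 and Matplotlib 3.10.9 were used. ChIP-seq, differentiated cells, OPCs and human samples were not used here.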

Additional observations from a re-analysis of the deposited data

Results flagged for a closer look

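A library was looked at again when it stood apart from the other 3 of its line by Dixon's test. This was the case for 11 of 178 values tested (6.18%), and chance gives about 1 in 20. In WT-H3.3, Igfbp4 was at 11.7 CPM at 8 h, replicate 1 (6.88 to 7.62 in the others), ENSMUSG00000096323.2 at 3.21 CPM at 4 h, replicate 1 (2.04 to 2.18), and Flywch2 at 2.65 CPM at 4 h, replicate 2 (2.1 to 2.18). The WT-H3.3 library at 8 h, replicate 2, stood apart with Ier3 at 4.03 CPM (8.55 to 8.91), A2m at 48.2 CPM (22.0 to 26.4), Pgm1 at 44.6 CPM (58.9 to 59.7) and a median of -0.074 over the mitosis genes (0.018 to 0.024, log2 scale relative to the WT-H3.3 mean). In H3.3K27M, Vegfa was at 95.3 CPM (20.6 to 32.8) and Dnaic2 at 4.55 CPM (1.56 to 2.04) at 8 h, replicate 2, ENSMUSG00000097966.1 at 1.7 CPM (1.12 to 1.2) at 8 h, replicate 1, and Sox2 at 457 CPM (376 to 385) at 4 h, replicate 2. No difference of the line effect between 4 and 8 h passed the adjusted threshold of edgeR.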

How the results depend on the processing

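Without the filter on low counts, edgeR called 28 genes for the mean line effect, 6 at 4 h, 10 at 8 h, 2 for 8 against 4 h (Cyp1a1 and Cyp1b1) and 68 at 24 and 72 h, where the fits with the filter called 0; the cause was not tested. DESeq2 called 1 gene for the mean line effect (Fabp1), 1 at 8 h and 9 at 24 and 72 h. The replicate block gave 1 call for the mean effect (also with the additive model), 2 at 4 h (Fabp1 and ENSMUSG00000098973.1), 1 at 8 h and 1 at 24 and 72 h, and left the counts of calls for time and for its change at 0. Chosen after seeing the data, the block without WT-H3.3 at 4 h, replicate 2, gave 1, 1 and 1 calls (mean, 4 h, 8 h), with 522 genes at an unadjusted p under 0.05 for the mean effect in place of 1729, and the block without H3.3K27M at 8 h, replicate 2, gave 1, 7 and 1 calls, 595 at an unadjusted p under 0.05, and 1 call for time (Cyp1a1). Leaving out each library without the block gave 0 calls in all early comparisons; genes at an unadjusted p under 0.05 for the mean effect ranged from 115 (without H3.3K27M at 8 h, replicate 2) to 1219 (without H3.3K27M at 8 h, replicate 1), against 350. At 24 and 72 h, leaving out each library gave 0 to 43 calls, the latter without H3.3K27M at 24 h, replicate 1. RLE and upper quartile normalization, 10 counts or more in every library, fits on 16 or 32 libraries, chromosome 8 kept and no fold threshold gave 0 calls for the early comparisons they were run on.

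Of 1227 alternative values of the 59 named genes, 22 changed sign, in genes near 0. Without the filter Sox2 was at -0.012 and Suz12 at -0.018, and with the block but without WT-H3.3 at 4 h, replicate 2, Sox2 was at -0.046, Ezh2 at 0.004 and Suz12 at -0.032. Leaving out each library gave -0.248 to 0.027 for H3f3b, -0.322 to 0.075 for H3f3a, -0.221 to 0.059 for Nanog, -0.042 to 0.101 for Sox2, -0.145 to 0.113 for Ezh2 and -0.116 to 0.209 for Suz12. Without the filter Fabp1, Spopfm1, Pgm2, Cdx2 and Myc passed the threshold on the adjusted p and the fold, and Aldh18a1 and mt-Nd1 had an adjusted p of 0.0372 in edgeR with changes under 2-fold. Of 587 alternative values of list medians, 43 moved by more than the spread between libraries. The medians of HIF targets and glycolysis stayed above 0 in all 21 alternatives (0.196 to 0.366 and 0.183 to 0.349). Without the filter the median was -0.12 for glutamate receptors and -0.512 for neural progenitor markers, and with 10 counts or more in every library it was -0.106 for the PRC2 target genes and 0.052 for trophoblast markers. Genes below about 1 CPM rest on few counts, which limits the developmental and glutamate receptor genes most.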

Other observations

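Some genes outside the groups described stood out in the counts and are given as values; all were chosen after the values were seen. Padi2, an enzyme that converts arginine of histones to citrulline, was at 4.21, 10.5, 4.68 and 11.6 CPM in WT-H3.3 and at 6.72, 30.0, 6.47 and 40.8 CPM in H3.3K27M (4 h replicates 1 and 2, then 8 h replicates 1 and 2). It was higher in replicate 2 of both lines, and higher in H3.3K27M within each time and replicate, with a log2 fold change of 1.41 ± 0.67 (SE) and a blocked adjusted p in edgeR of 0.138. The gene ENSMUSG00000098973.1, which has no position here, was at 970, 324, 1017 and 543 CPM in WT-H3.3 and at 1669, 1116, 1053 and 624 CPM in H3.3K27M, and was called at 4 h with the block.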
